A study of Mus musculus with 12 samples.

Results

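Expression of the phagocyte NADPH oxidase and the Fc gamma receptors was examined in leukemic and normal mouse bone marrow cells. The members were chosen by symbol, 4 oxidase subunits (Cybb, Cyba, Ncf1, Ncf4) and 5 receptor genes (Fcgr1, Fcgr2b, Fcgr3, Fcgr4, Fcer1g), which makes 9 of the 24028 genes in the count tables, and all 9 were found. The study holds 12 RNA-seq libraries of C57BL/6 bone marrow in 4 groups of 3. The iMLL-ENL mice carry MLL-ENL, a fusion gene of human leukemia, as a doxycycline-inducible knock-in, and doxycycline was given until acute leukemia developed. Their libraries came from total marrow (iMLL-ENL total) and from leukemic cells sorted for high B220 (B220 HIGH) or low B220 (B220 LOW), a CD45 isoform best known from B cells. The wt LSK libraries came from control mice, from lineage-depleted marrow sorted by the surface proteins c-Kit and Sca-1, which enriches stem cells and early progenitors. The labels do not give the animals' age, the promoter that drives the knock-in, or whether control mice also received doxycycline. They give 3 animals per genotype and no animal for a library, and the p-values below therefore describe library-to-library spread, which may be technical. The wt LSK libraries differ from the iMLL-ENL libraries in genotype and sort, and possibly in doxycycline treatment, and these cannot be told apart.

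The phagocyte oxidase is an enzyme that passes electrons from NADPH to oxygen and makes superoxide. Its membrane core is a dimer of gp91phox (Cybb) and p22phox (Cyba), which is switched on when cytosolic subunits, among them p47phox (Ncf1) and p40phox (Ncf4), and a Rac GTPase join it. Fc gamma receptors bind the constant part of IgG: in mice, Fcgr1, Fcgr3 and Fcgr4 encode activating chains that signal through the gamma chain of Fcer1g, and Fcgr2b encodes the inhibitory receptor. Neutrophils, monocytes and macrophages use both systems in the killing of antibody-coated microbes.

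Library totals ran from 18001563 to 22706882 counts in iMLL-ENL total, 18227843 to 19607722 in wt LSK, 10921521 to 20069503 in B220 HIGH and 13441696 to 16626820 in B220 LOW. Levels are in CPM, read counts scaled to the library total. The summed level of 9 LSK markers was 273.8 to 496.7 CPM in iMLL-ENL total and 3267 to 3948 CPM in wt LSK. Of 9 neutrophil markers in the tables iMLL-ENL total replicates 1, 2 and 3 held a sum of 1150, 9391 and 10599 CPM, against 143.4 to 254.9 CPM in wt LSK. In B220 HIGH it was 191.3, 15140 and 4685 CPM, against 761.7, 1951 and 3540 CPM in B220 LOW. The 8 B cell markers summed to 8.79, 82.4 and 13.9 CPM in B220 HIGH and to 7.2 to 14.9 CPM in B220 LOW, where Pax5 and Igll1 had 0 counts. Replicate 2 of wt LSK stood apart, with 205.9 CPM of B cell markers and 309.9 CPM of monocyte and macrophage markers, against at most 45.4 and 126.1 CPM in the other wt LSK libraries. Replicate 2 of B220 HIGH stood apart by 782.8 CPM of H2-Ab1, an MHC class II gene on the dendritic cell list, against 74.4 and 50.5 CPM in replicates 1 and 3. The other 4 genes of that list, Cd209a, Xcr1, Clec9a and Zbtb46, reached at most 6.23 CPM in B220 HIGH.

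**Figure D1:**
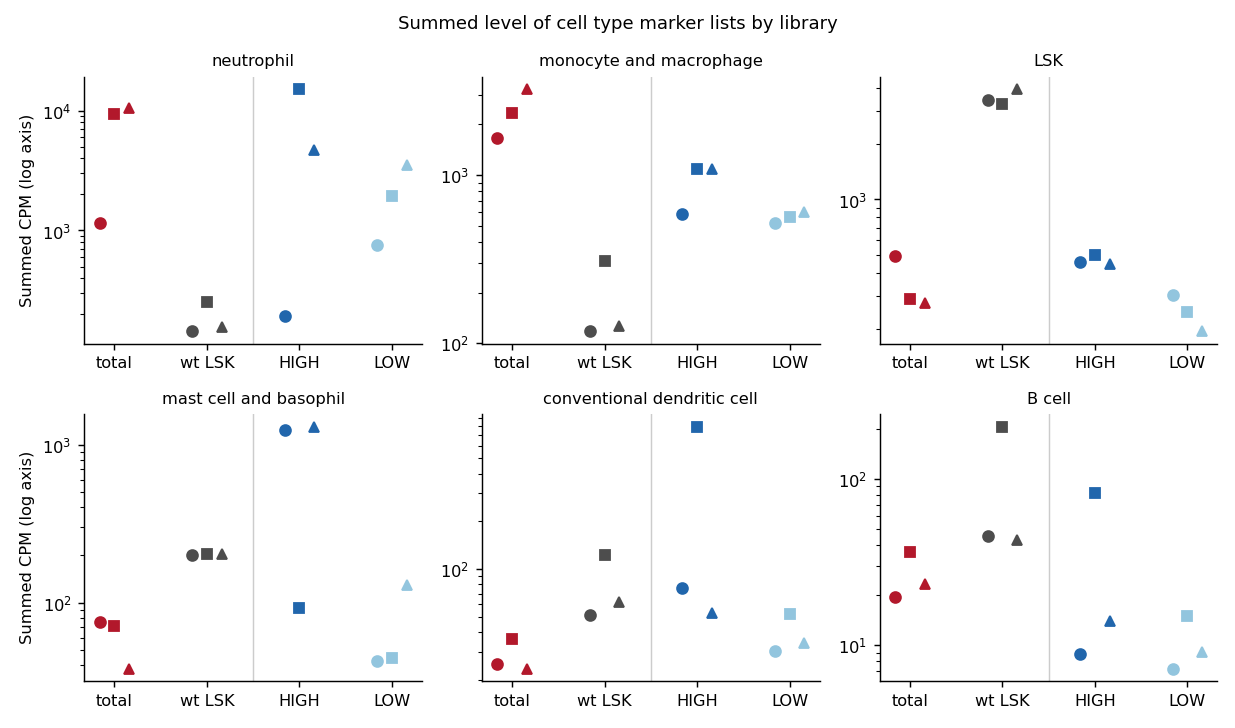
Summed level of 6 marker lists (y axis, CPM on a log scale) in each library; circle, square and triangle are replicates 1, 2 and 3, and the line between groups parts the count tables. The neutrophil sum of B220 HIGH covers 191.3 to 15140 CPM, and the LSK sum is highest in the 3 wt LSK libraries.

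The first comparison set iMLL-ENL total against wt LSK. All 4 oxidase subunits and 4 of the 5 receptor genes were higher in iMLL-ENL total, which is unsorted marrow. The rise lay between 7.44-fold for Ncf1 and 153.5-fold for Fcgr4. Fcgr1, the high-affinity IgG receptor, was too low to be tested. Genes were called at an adjusted p under 0.05 in edgeR's quasi-likelihood test with Benjamini-Hochberg adjustment over all 13811 genes tested, of which 15.5% were called higher and 15.1% lower, 30.6% in all. For the same 8 members every iMLL-ENL total library lay above every wt LSK library, which held for 19.0% of the genes tested. Fcgr4 passed the filter on low counts only through the leukemic libraries, so it was bound to differ once tested. In bulk RNA, fewer cells of a type and less RNA per cell cannot be told apart.

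**Figure D2:**
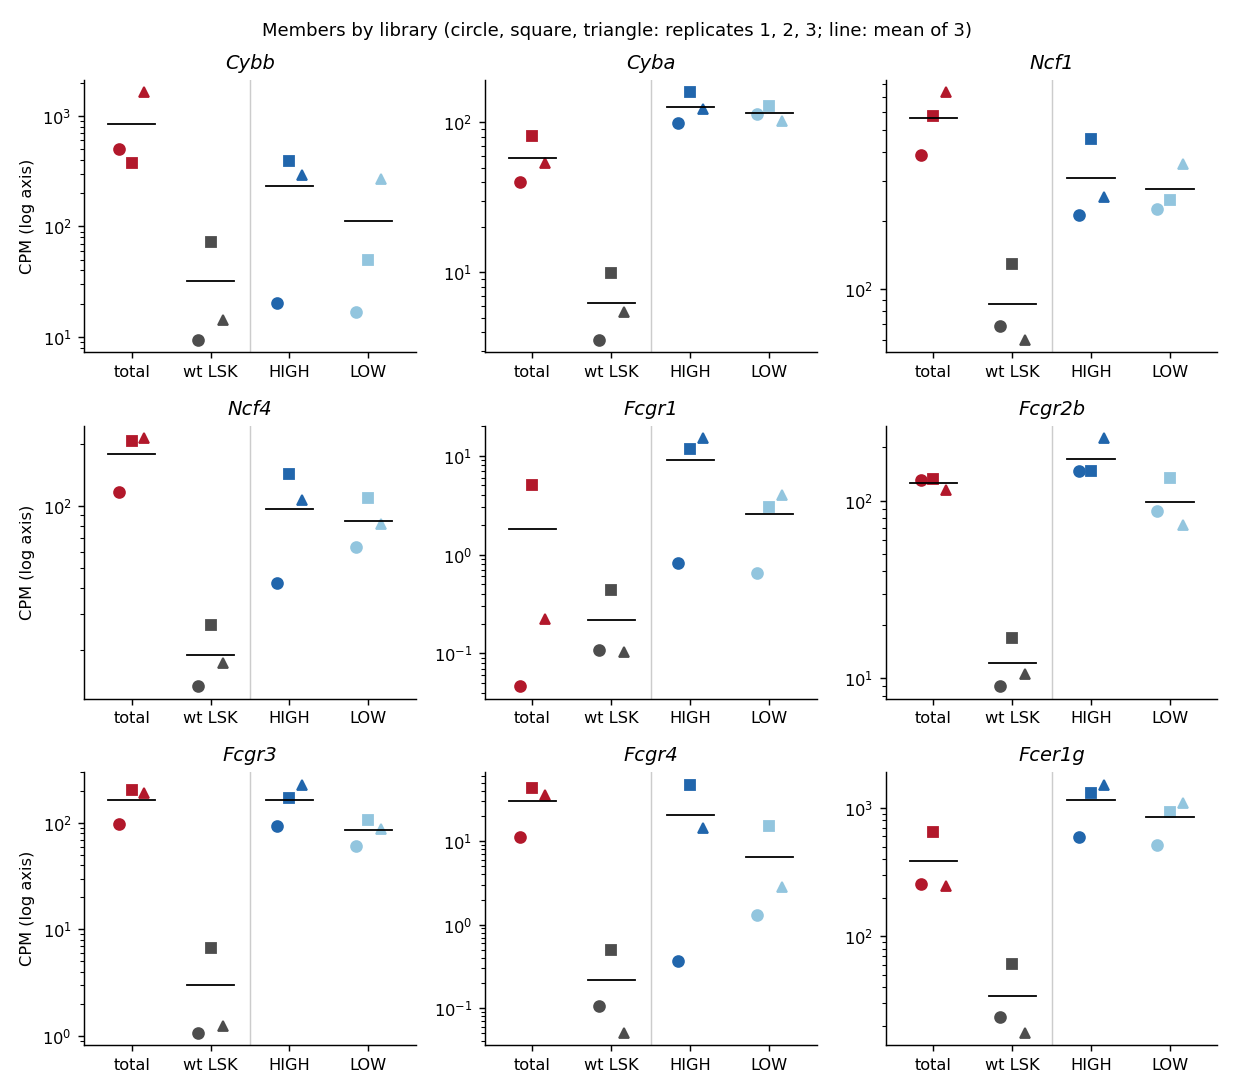
Level of the 9 genes (y axis, CPM on a log scale with its own range in each panel) in each library; circle, square and triangle are replicates 1, 2 and 3, the horizontal line is the mean of 3, and the vertical line parts the count tables. In 8 panels every iMLL-ENL total library lies above every wt LSK library, and Fcgr1 is the exception.

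Cybb, the catalytic gp91phox subunit (NCBI gene 13058, chrX:9435252-9487766 on GRCm38.p6), had 502.4, 376.5 and 1637 CPM in iMLL-ENL total, against 9.4, 72.3 and 14.2 CPM in wt LSK. Replicate 3 of iMLL-ENL total and replicate 2 of wt LSK were the high libraries of their groups. Cybb rose 30.5-fold (log2 4.93, SE 0.97, edgeR adjusted p = 0.00735, 95% interval 6.39- to 145.2-fold). Without a filter on low counts the call was lost, with a log2 change of 4.91 and an edgeR adjusted p of 0.0527. Without iMLL-ENL total replicate 3 the log2 change was 3.89, and without wt LSK replicate 2 it was 6.25, both called.

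Cyba, which encodes the p22phox partner of gp91phox (gene 13057, chr8:122424771-122432940), had 39.9, 81.1 and 53.5 CPM in iMLL-ENL total, against 3.54, 9.93 and 5.41 CPM in wt LSK. It rose 10.4-fold (log2 3.38, SE 0.43, edgeR adjusted p = 0.000786). The levels of these partners did not keep a fixed ratio. Per base of the deposited gene width, Cybb stood at 1.77, 0.652 and 4.3 times Cyba in iMLL-ENL total and at 0.372, 1.02 and 0.37 times in wt LSK. In the sorted leukemic cells it stood at 0.0291, 0.342 and 0.338 times Cyba in B220 HIGH, against 0.0207, 0.0545 and 0.372 times in B220 LOW. The groups overlapped in both comparisons, and the ratios were not tested.

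Ncf1, which encodes the organizer subunit p47phox (gene 17969, chr5:134220053-134229628), had 388, 575.5 and 736.1 CPM in iMLL-ENL total, against 68.7, 129.6 and 59.8 CPM in wt LSK. It was the member with the smallest rise, 7.44-fold (log2 2.89, SE 0.36, edgeR adjusted p = 0.000692). Ncf4, which encodes p40phox (gene 17972, chr15:78244164-78262582), measured 116.9, 206.1 and 213.3 CPM in iMLL-ENL total and 13.3, 26.3 and 17.3 CPM in wt LSK. Its rise was 10.6-fold (log2 3.41, SE 0.34, edgeR adjusted p = 0.000249). In both genes the highest wt LSK library was replicate 2, and it lay below the lowest leukemic library. Of the 50-base words in annotated Ncf1 transcripts, 7.45% also occur in other genes, almost all of them in Gtf2ird2, so counts of Ncf1 could include a small part of another gene's reads.

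Among the activating receptors, Fcgr3, the low-affinity chain CD16 (gene 14131, chr1:171051169-171065915), had 98.5, 204 and 193.5 CPM in iMLL-ENL total, against 1.07, 6.69 and 1.22 CPM in wt LSK. It rose 63.1-fold (log2 5.98, SE 0.77, edgeR adjusted p = 0.000989), and by 7.24 on the log2 scale without wt LSK replicate 2. Fcgr4 (gene 246256, chr1:171018926-171029761), a receptor for IgG2a and IgG2b, measured 11.1, 43.5 and 35.5 CPM in iMLL-ENL total and 0.107, 0.494 and 0.051 CPM in wt LSK. It was close to absent in normal LSK cells, and its rise of 153.5-fold had a 95% interval of 40.3- to 584.6-fold (log2 7.26, SE 0.84, edgeR adjusted p = 0.000509). Without wt LSK replicate 2 the log2 change was 8.54. Fcgr1 (CD64, gene 14129, chr3:96282909-96293969) had 1, 92 and 5 counts in iMLL-ENL total and 2, 8 and 2 counts in wt LSK. Only replicate 2 of iMLL-ENL total, at 5.11 CPM, stood above the wt LSK range of 0.102 to 0.439 CPM, and a fit without the filter gave a log2 change of 3.12 (edgeR adjusted p = 0.18).

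Fcgr2b, the inhibitory receptor CD32b (gene 14130, chr1:170960558-170976071), varied little among the iMLL-ENL total libraries. Its levels were 131.7, 132.5 and 115 CPM in iMLL-ENL total and 9.02, 16.8 and 10.6 CPM in wt LSK, a rise of 11.6-fold (log2 3.54, SE 0.26, edgeR adjusted p = 6.63e-05). Fcer1g, which encodes the shared gamma chain (gene 14127, chr1:171229572-171234349), had 254.7, 654.7 and 244.3 CPM in iMLL-ENL total, against 23.5, 61.1 and 17.7 CPM in wt LSK. It rose 12.7-fold (log2 3.67, SE 0.58, edgeR adjusted p = 0.00255), with 3.05 on the log2 scale without iMLL-ENL total replicate 2 and 4.28 without wt LSK replicate 2. Replicate 2 was the high library in both groups.

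**Figure D3:**
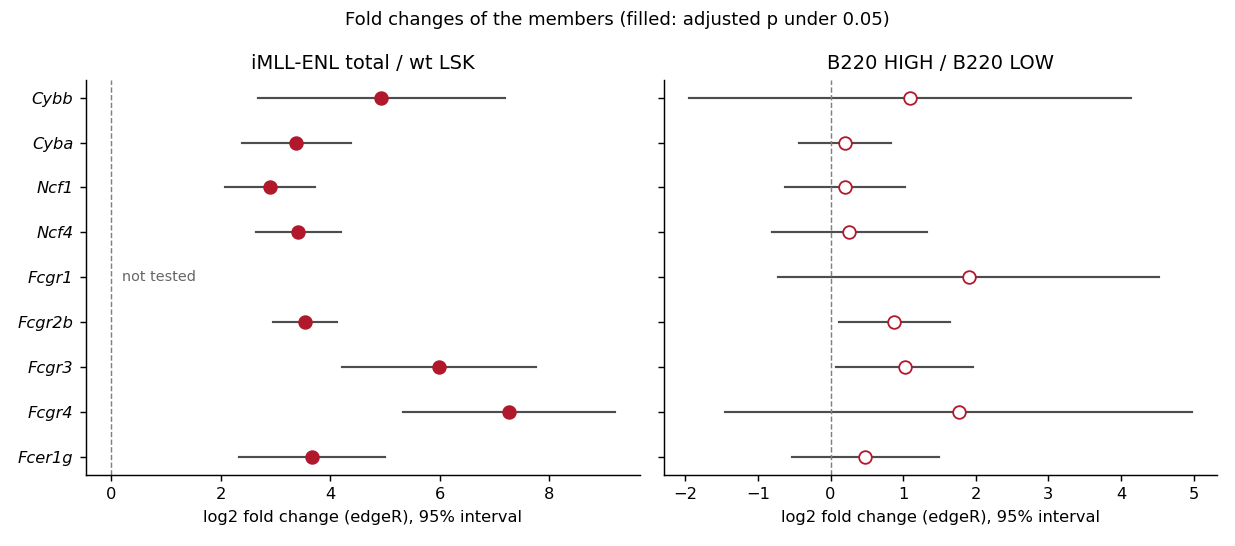
Log2 fold changes of the 9 genes with 95% intervals (x axis) for iMLL-ENL total over wt LSK (left) and B220 HIGH over B220 LOW (right); filled points passed an adjusted p of 0.05. On the left 8 points are filled, with Fcgr4 farthest out at 7.26, and on the right none is.

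Markers of mature myeloid cells moved with these genes. Of 9 neutrophil markers tested 6 rose and 0 fell in iMLL-ENL total, and of 10 monocyte and macrophage markers 8 rose and 0 fell. The 11 monocyte and macrophage markers summed to 1664 to 3227 CPM in iMLL-ENL total and to 117.6 to 309.9 CPM in wt LSK, where C1qa had 0 counts and no other marker of these lists did. Their part in the rise of the oxidase and receptor genes was not tested.

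The balance of the inhibitory and activating low-affinity receptors was then taken as a share within each library. Fcgr2b made up 57.2%, 39.4% and 37.3% of the Fcgr2b and Fcgr3 reads in iMLL-ENL total, against 89.4%, 71.6% and 89.7% in wt LSK. The means were 44.6% ± 11 in iMLL-ENL total and 83.5% ± 10.4 in wt LSK (SD, n = 3 each), with no overlap. The difference was -38.9 percentage points (two-sided exact permutation p = 0.1, the smallest that 3 against 3 libraries can give). Of the 50-base words of Fcgr3, 9.58% also occur in Fcgr2b, so part of these reads could be placed in either gene. The gamma chain was also set against the activating chains that it serves. Per base of gene width, Fcer1g stood at 5.06, 5.63 and 2.3 times the sum of Fcgr1, Fcgr3 and Fcgr4 in iMLL-ENL total, against 41.4, 18.0 and 29.3 times in wt LSK. In wt LSK the activating chains rested on 20, 122 and 24 counts of Fcgr3, with at most 9 counts of Fcgr4 and 8 of Fcgr1 per library. This ratio, chosen after its values were seen, did not overlap between the groups and was not tested.

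**Figure D4:**
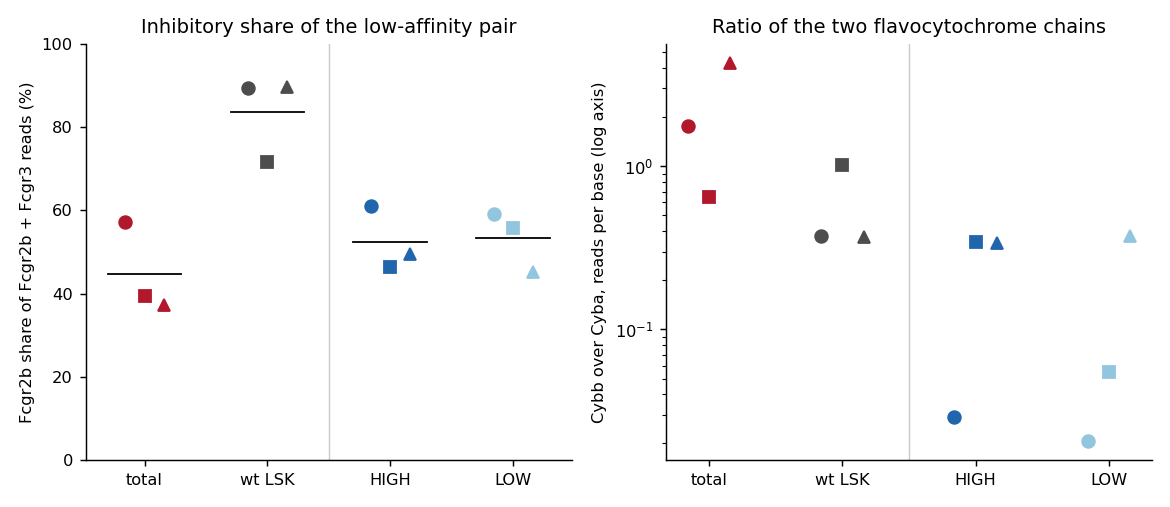
Share of Fcgr2b in the Fcgr2b and Fcgr3 reads (left, percent, with the mean of 3 as a line) and ratio of Cybb to Cyba per base of gene width (right, log axis) in each library; circle, square and triangle are replicates 1, 2 and 3. The share lies between 37.3% and 57.2% in iMLL-ENL total and between 71.6% and 89.7% in wt LSK.

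Promoter windows of 300 bases, 250 before to 50 after the RefSeq gene start (GRCm38.p6), were found for 8 members, Ncf4 being the one without. They were searched on both strands for GAGGAA, a short purine-rich motif of the kind bound by PU.1 (Spi1), the ETS factor of myeloid cells. The motif was in 4 of 8 windows, those of Cybb, Fcgr1, Fcgr3 and Fcgr4, and in 28.3% of 27025 windows of all genes. These 4 windows are shown because 3 of the 4 genes, Cybb, Fcgr3 and Fcgr4, had the largest fold changes of the members tested. Of these, Fcgr4 had only 2, 9 and 1 counts in wt LSK, so its rank is uncertain, and Fcgr1 was not tested. The genes whose windows lack the motif, Cyba, Ncf1, Fcgr2b and Fcer1g, were called higher too. A link between motif and fold change was not tested. Each window shown is printed along its gene's strand, with the match in capitals. All 4 matches lie on the other strand and therefore read TTCCTC.
Cybb, chrX:9469275-9469574, minus strand: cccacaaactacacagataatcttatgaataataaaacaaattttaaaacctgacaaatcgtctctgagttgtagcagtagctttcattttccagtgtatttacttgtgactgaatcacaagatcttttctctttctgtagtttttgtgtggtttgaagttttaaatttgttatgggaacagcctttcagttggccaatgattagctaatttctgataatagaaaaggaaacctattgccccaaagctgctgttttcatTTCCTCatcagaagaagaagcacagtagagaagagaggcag
Fcgr1, chr3:96293920-96294219, minus strand: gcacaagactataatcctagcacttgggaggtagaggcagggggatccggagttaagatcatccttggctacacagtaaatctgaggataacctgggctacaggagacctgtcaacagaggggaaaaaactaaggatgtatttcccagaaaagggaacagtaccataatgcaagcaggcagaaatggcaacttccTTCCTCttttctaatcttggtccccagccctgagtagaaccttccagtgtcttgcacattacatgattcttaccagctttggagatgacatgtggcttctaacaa
Fcgr3, chr1:171059354-171059653, minus strand: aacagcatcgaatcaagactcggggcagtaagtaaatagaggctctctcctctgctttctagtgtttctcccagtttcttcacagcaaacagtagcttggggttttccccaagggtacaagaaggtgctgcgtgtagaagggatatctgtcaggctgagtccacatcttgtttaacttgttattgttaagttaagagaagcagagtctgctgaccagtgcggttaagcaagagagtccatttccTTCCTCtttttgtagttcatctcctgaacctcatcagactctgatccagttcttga
Fcgr4, chr1:171018676-171018975, plus strand: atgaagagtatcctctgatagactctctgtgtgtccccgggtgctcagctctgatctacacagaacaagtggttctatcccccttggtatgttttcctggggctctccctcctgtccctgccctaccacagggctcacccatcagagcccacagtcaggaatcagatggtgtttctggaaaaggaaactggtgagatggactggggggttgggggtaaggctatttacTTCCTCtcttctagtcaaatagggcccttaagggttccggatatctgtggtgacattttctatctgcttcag
Counted along the window from its first base, the match starts at base 260 in Cybb, 196 in Fcgr1, 245 in Fcgr3 and 229 in Fcgr4. In Fcgr1, Fcgr3 and Fcgr4 it lies before the start used for the window, and in Cybb after it. For Cybb and Fcgr3 that start lies inside the annotated gene span given above, which reaches farther upstream. The ETS-IRF composite element (EICE) was in 2 of 8 windows, those of Cybb and Fcgr2b, and in 2.8% of all windows, and in Cybb it overlaps the GAGGAA match. TTNNGNAA, of the C/EBP type, was in 2 of 8 windows, those of Fcgr3 and Fcgr4, and in 40.7% of all windows.

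Factors known to act on such promoters were measured as transcripts. Of 12 transcription factors of phagocyte genes tested, 5 rose and 2 fell in iMLL-ENL total, with a median log2 change of 0.75 against 0.05 over all genes. Spi1 averaged 147.0 ± 14.8 CPM in iMLL-ENL total and 41.2 ± 10.9 CPM in wt LSK (SD, n = 3 each; log2 2.0, SE 0.23, edgeR adjusted p = 0.000433). Gfi1, a repressor active in granulocyte development, rose by 3.09 (SE 0.37, edgeR adjusted p = 0.000619). Irf1, an interferon-response factor, fell by 1.59 (SE 0.24, edgeR adjusted p = 0.00177), with 24.5 ± 4.24 CPM in iMLL-ENL total and 82.2 ± 17.9 CPM in wt LSK. The part of these factors in the levels of the members was not tested.

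Partners and regulators of the oxidase were counted next. Of 10 oxidase partners tested 5 rose and 0 fell, with a median log2 change of 1.08. Rac2, the Rac GTPase of blood cells, averaged 909.7 ± 70.5 CPM in iMLL-ENL total and 312.1 ± 87.5 CPM in wt LSK (log2 1.71, SE 0.22, edgeR adjusted p = 0.000753). Prkcd, a kinase that phosphorylates p47phox, rose by 1.51 (SE 0.20, edgeR adjusted p = 0.001). Of the 9 other NADPH oxidase family genes only Nox1 and Noxo1 were high enough to be tested, and neither was called. DESeq2 called 2 genes of this list, as did edgeR without the filter or without any 1 of the iMLL-ENL total libraries, and edgeR without wt LSK replicate 1 or 3 called 1. Among those not tested, Nox4, Noxa1, Duox1 and Duoxa1 averaged 0 CPM in iMLL-ENL total and 1.0, 0.7, 0.372 and 0.126 CPM in wt LSK. Duox2 averaged 0.0741 CPM in iMLL-ENL total and 0 CPM in wt LSK, and Nox3 and Duoxa2 were at 0 CPM in both. Nox1, the colon-type catalytic subunit, averaged 7.99 ± 3.71 CPM in iMLL-ENL total and 8.4 ± 1.54 CPM in wt LSK (log2 0.08, SE 0.42, edgeR adjusted p = 0.908). Nox1 overlaps Cstf2, another gene in the count tables, so its counts could include reads of Cstf2.

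Among the 12 antioxidant enzymes 4 rose and 2 fell, with a median log2 change of 0.01. Gsr, the glutathione reductase, averaged 1185 ± 266.2 CPM in iMLL-ENL total and 58.5 ± 5.8 CPM in wt LSK, a log2 rise of 4.50 (SE 0.25, edgeR adjusted p = 1.78e-05). Prdx5, a peroxiredoxin, rose by 3.59 (SE 0.42, edgeR adjusted p = 0.000533), and Hmox1, heme oxygenase 1, by 2.42 (SE 0.34, edgeR adjusted p = 0.00133). Prdx5 overlaps Trmt112, so part of its counts could be reads of that gene. Nqo1 and Gclm were the pair that fell.

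Lists of activating (ITAM) and inhibitory (ITIM) signaling genes were counted next, and they are not confined to the Fc gamma receptors. Of 15 ITAM signaling genes, which act with or below activating chains of many receptors, 6 rose and 3 fell, with a median log2 change of 0.29. The Src-family kinase Lyn rose by 1.81 (SE 0.29, edgeR adjusted p = 0.00222), while Fyn of the same family fell by 3.71 (SE 0.44, edgeR adjusted p = 0.00054), or by 4.33 without iMLL-ENL total replicate 2. Tyrobp, which encodes the adaptor DAP12, averaged 257.5 ± 126.9 CPM in iMLL-ENL total and 18.4 ± 18.6 CPM in wt LSK (log2 4.00, SE 0.73, edgeR adjusted p = 0.00493). Without wt LSK replicate 2 its log2 change was 5.14. Syk, the kinase that docks on the phosphorylated gamma chain, stood at 248.4 ± 84.3 CPM in iMLL-ENL total and 254.7 ± 23.1 CPM in wt LSK (log2 0.12, SE 0.28, edgeR adjusted p = 0.787). Of 14 ITIM receptors and phosphatases 10 rose and 0 fell, with a median of 2.57. All receptors of this list rose (Pirb, Lilrb4a, Sirpa, Cd300a, Clec12a, Siglece and Cd33), and none of them is an Fc gamma receptor. Of its phosphatases and adaptors, Ptpn6, Inppl1 and Dok3 rose, while Inpp5d, Ptpn11, Dok1 and Dok2 were not called. Sirpa, the receptor of CD47, rose by 2.73 (SE 0.23, edgeR adjusted p = 0.000109), Pirb, a paired inhibitory receptor, by 4.36 (SE 0.42, adjusted p = 0.000228) and Dok3, an inhibitory adaptor, by 4.08 (SE 0.40, adjusted p = 0.000242). Inpp5d, the SHIP1 phosphatase recruited by Fcgr2b, stood at 208.9 ± 39.0 CPM in iMLL-ENL total and 208.7 ± 17.3 CPM in wt LSK (log2 0.16, SE 0.20, edgeR adjusted p = 0.583).

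**Figure D5:**
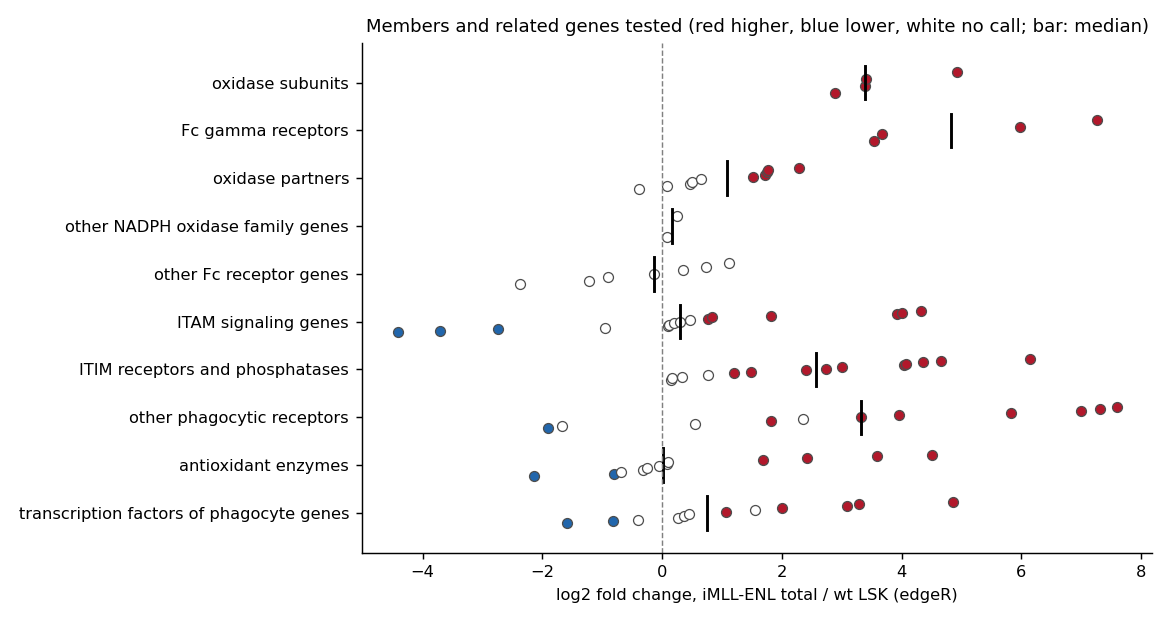
Log2 fold change of iMLL-ENL total over wt LSK (x axis) for the members tested and the genes of 8 related lists; each point is a gene, red called higher, blue called lower, white not called, and the bar is the list's median. The medians are 2.57 for ITIM receptors and phosphatases, 0.29 for ITAM signaling genes and 1.08 for oxidase partners.

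Of 11 other phagocytic receptors tested, 7 rose and 1, Cd36, fell, with a median log2 change of 3.32. Itgam and Itgb2, the chains of complement receptor CR3, rose by 3.32 (SE 0.23, edgeR adjusted p = 5.43e-05) and 3.95 (SE 0.38, adjusted p = 0.000204). Msr1, a scavenger receptor, rose by 6.99 (SE 0.75, edgeR adjusted p = 0.000349), and by 8.76 without wt LSK replicate 2. With 2, 14 and 1 counts in wt LSK it passed the filter through the leukemic libraries, so it was bound to differ once tested. Of 14 other Fc receptor genes 7 were high enough to be tested and none was called, with a median log2 change of -0.14. DESeq2 called 1 gene of this list, and so did edgeR without iMLL-ENL total replicate 1. Fcer1a, which encodes the IgE-binding chain that pairs with the gamma chain on mast cells, had 0 counts in all 9 leukemic libraries and 25 counts over the 3 wt LSK libraries. A group total of 0 counts allows up to 3 counts, or 0.0482 CPM in iMLL-ENL total, by counting error alone.

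The second comparison set B220 HIGH against B220 LOW. Log2 changes ran from 0.20 to 1.09 for the oxidase subunits and from 0.48 to 1.90 for the receptor genes, so all 9 members had a positive change, but no member was called. In edgeR 0.00% of the 12564 genes tested were called (0 genes), 880 genes had an unadjusted p under 0.05, and DESeq2 called 302 genes (2.14%), none of them a member. A log2 change above 0 was found for 48.1% of all genes tested. It was also found for 11 of 11 other phagocytic receptors (median 3.09) and 13 of 13 ITAM signaling genes (median 0.68). Among ITIM receptors and phosphatases it held for 11 of 14, and among oxidase partners for 7 of 10. Among antioxidant enzymes and among transcription factors of phagocyte genes it held for 5 of 12 each. Same-numbered libraries deviated together in these groups, and a fit with a replicate block called 79 genes (0.629%), again without a member.

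Cybb had 20.5, 387.9 and 293.8 CPM in B220 HIGH, against 16.8, 50 and 271.1 CPM in B220 LOW (log2 1.09, SE 1.28, edgeR adjusted p = 0.932, 95% interval -1.95 to 4.14). With 1 library left out its log2 change ranged from 0.57 to 2.95, the highest without B220 LOW replicate 3. Replicate 1 was the low library in both groups, and its neutrophil and its monocyte and macrophage markers were also the lowest of each group. In iMLL-ENL total Cybb was lowest in replicate 2, at 376.5 CPM, while both marker sums were lowest in replicate 1, at 1150 and 1664 CPM. A link of Cybb to either marker list was not tested. Cyba had 98.8, 159.1 and 121.9 CPM in B220 HIGH and 114.4, 128.7 and 102.4 CPM in B220 LOW (log2 0.20, SE 0.28, 95% interval -0.44 to 0.83). Ncf1 had 211.3, 456.6 and 255.6 CPM in B220 HIGH and 226, 248.1 and 355.9 CPM in B220 LOW (log2 0.20, SE 0.37, 95% interval -0.63 to 1.03). The B220 HIGH and B220 LOW libraries overlapped for each of these subunits. Ncf4, with 42.1, 142.9 and 106.7 CPM in B220 HIGH and 63.3, 109.9 and 81.9 CPM in B220 LOW, overlapped too (log2 0.26, SE 0.47, 95% interval -0.80 to 1.33). Without B220 HIGH replicate 2 the log2 changes of Ncf1 and Ncf4 were -0.19 and -0.09.

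Fcgr2b had 146.4, 148 and 224.7 CPM in B220 HIGH, against 87.5, 134.1 and 72.8 CPM in B220 LOW. It was the only member whose B220 HIGH libraries all lay above the B220 LOW libraries, which held for 6.20% of the genes tested (log2 0.88, SE 0.34, edgeR adjusted p = 0.655, 95% interval 0.11 to 1.65). Fcgr3 had 93.2, 170.7 and 230.2 CPM in B220 HIGH and 60.7, 106.6 and 88.8 CPM in B220 LOW (log2 1.02, SE 0.42, edgeR adjusted p = 0.688, 95% interval 0.07 to 1.96). The 95% intervals of these 2 members, which are not adjusted for the number of genes, lay above 0. Within same-numbered pairs, Fcgr3 in B220 HIGH was 1.54, 1.6 and 2.59 times B220 LOW. With the replicate block its edgeR adjusted p was 0.14, the lowest of the members.

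Fcgr1 had 9, 232 and 297 counts in B220 HIGH (0.824, 11.6 and 15.0 CPM) and 10, 41 and 66 counts in B220 LOW (0.655, 3.05 and 3.97 CPM). Its log2 change was 1.90 (SE 1.16, edgeR adjusted p = 0.823, 95% interval -0.72 to 4.52). Fcgr4 had 0.366, 47.7 and 14.6 CPM in B220 HIGH and 1.31, 15.1 and 2.83 CPM in B220 LOW (log2 1.77, SE 1.41, edgeR adjusted p = 0.877, 95% interval -1.45 to 4.98), or 0.37 without B220 HIGH replicate 2 and 3.4 without B220 LOW replicate 2. For both genes replicate 1 was the lowest library of each group. Fcer1g had 597.6, 1314 and 1522 CPM in B220 HIGH and 517.8, 934 and 1102 CPM in B220 LOW (log2 0.48, SE 0.45, edgeR adjusted p = 0.899, 95% interval -0.53 to 1.5).

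Cybb, Fcgr1, Fcgr2b, Fcgr3 and Fcer1g were higher in B220 HIGH than in B220 LOW in 3 of 3 same-numbered pairs, which held for 16.1% of all genes tested. Some of these differences were small. Cybb in B220 HIGH was 1.22 and 1.08 times B220 LOW in pairs 1 and 3, and Fcgr2b 1.1 times in pair 2. Fcgr1 in pair 1 rested on 9 counts in B220 HIGH and 10 counts in B220 LOW. Cyba, Ncf4 and Fcgr4 were higher in 2 of 3 pairs and Ncf1 in 1. The Fcgr2b share of Fcgr2b and Fcgr3 reads was 61.1%, 46.4% and 49.4% in B220 HIGH and 59.1%, 55.7% and 45.1% in B220 LOW, with means of 52.3% ± 7.76 and 53.3% ± 7.3 (SD, n = 3 each). The difference was -0.967 percentage points (two-sided exact permutation p = 1.0). Per base, Fcer1g stood at 14.1, 12.5 and 13.2 times the activating chains in B220 HIGH and at 18.3, 16.4 and 25.9 times in B220 LOW, without overlap and not tested. This ratio was chosen after its values were seen. Monocyte and macrophage markers summed to 588.1, 1080 and 1081 CPM in B220 HIGH and to 520.6, 560.6 and 601.7 CPM in B220 LOW. Mast cell and basophil markers, a lineage that also carries the gamma chain, summed to 1232, 91.9 and 1299 CPM in B220 HIGH and to 42.4, 44.6 and 129.4 CPM in B220 LOW, with Fcer1a at 0 in both groups. Cpa3, at 582.8 ± 460.1 CPM in B220 HIGH and 4.77 ± 5.94 CPM in B220 LOW, and Gata2, at 250.6 ± 193.5 CPM in B220 HIGH and 38.6 ± 29.4 CPM in B220 LOW, made up most of that sum. Mcpt8, a basophil protease gene, stood at 16.9 ± 19.6 CPM in B220 HIGH and 17.8 ± 6.56 CPM in B220 LOW, and Prss34 had 1 count in all. Their part in these values was not tested.

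None of the genes in the related lists was called between B220 HIGH and B220 LOW in edgeR without a block. With the replicate block Cd14, the lipopolysaccharide co-receptor, was called (log2 2.61, SE 0.42, edgeR adjusted p = 0.0482), at 170.1 ± 136.9 CPM in B220 HIGH and 21 ± 13.4 CPM in B220 LOW. Itgam averaged 856.2 ± 521.2 CPM in B220 HIGH and 206.8 ± 53.7 CPM in B220 LOW, with no overlap (log2 2.14, SE 0.49, edgeR adjusted p = 0.309), and DESeq2 called it (adjusted p = 0.00205). Rac2 stood at 604.6 ± 235.5 CPM in B220 HIGH and 662.0 ± 171.9 CPM in B220 LOW (log2 -0.08, SE 0.33, edgeR adjusted p = 0.982). For Tyrobp, Syk and Inpp5d the log2 changes were 1.04 (SE 0.49), 0.68 (SE 0.23) and 0.45 (SE 0.24), none called.

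Across all 4 groups the order of mean levels was the same at its ends. In reads scaled by gene width and library total (RPKM), Fcer1g was first in every group, at 584.5 ± 355.6 in iMLL-ENL total, 51.9 ± 35.8 in wt LSK, 1739 ± 736.9 in B220 HIGH and 1294 ± 457.3 in B220 LOW (SD, n = 3). Fcgr1 was last in every group, at 0.689 ± 1.11 in iMLL-ENL total, 0.0831 ± 0.0742 in wt LSK, 3.51 ± 2.85 in B220 HIGH and 0.984 ± 0.658 in B220 LOW, and Fcgr4 stood next to last. The gap between these last members was within the larger of their SDs in wt LSK, B220 HIGH and B220 LOW, and in B220 HIGH replicate 1 Fcgr4 at 0.293 RPKM lay below Fcgr1 at 0.317 RPKM. In between, most neighbors differed by no more than the larger of their SDs, such as Ncf1 at 183.5 ± 56.4 and Cybb at 155.2 ± 128.5 in iMLL-ENL total. Cyba was second in both sorted groups, at 166.8 ± 40.1 in B220 HIGH and 151.7 ± 17.4 in B220 LOW, and 6th in iMLL-ENL total at 76.6 ± 27.7. The sorted and total libraries come from separate count tables, and levels set across them were not tested.

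Over the 9 leukemic libraries the members varied to very different degrees. The highest CPM was 3.08 times the lowest for Fcgr2b, 3.48 times for Ncf1, 3.79 times for Fcgr3 and 3.99 times for Cyba. It was 97.3 times for Cybb. Fcgr4 and Fcgr1 spread farther, but their lowest libraries held only 4 counts and 1 count, too few for an exact ratio. Likeness of pattern was taken as Pearson's r of log2(CPM + 1) over the 12 libraries, which share groups and tables, as a description over 9469 other genes with a mean of at least 10 CPM. Cybb was most like Csf1r, the receptor of the macrophage growth factor (r = 0.991), Rassf3 (0.972) and Fgr, a myeloid Src-family kinase (0.95). Fcer1g was most like Tmsb4x (0.987), an actin-binding peptide gene, Tyrobp (0.986) and Aprt (0.985), an adenine salvage enzyme. Fcgr2b was most like Tlr1 (0.982), Sc5d (0.974), a cholesterol synthesis enzyme, and Pstpip2 (0.971). Among the members themselves r was 0.98 for Fcgr2b with Fcgr3 and for Cyba with Fcer1g, and 0.45 for Cybb with Cyba.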

How the data were processed

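RNA-seq was read from 12 libraries. Per the labels' protocols, RNA came from a PicoPure isolation and was made into libraries with the unstranded NuGen Ovation kit. The authors deposited raw read counts for NCBI gene IDs in 2 tables, one for iMLL-ENL total and wt LSK and one for both B220 fractions. The deposited tables also give the width of each gene in bases, used for RPKM. Deposited CPM tables were left aside. Names in the submitters' processing notes are edgeR, GRCm38 and mm10. The aligner and counting tool were not given in the sources used here. Gene symbols, coordinates and promoters came from RefSeq (GRCm38.p6), which named 23968 of the 24028 IDs. Counts from an unstranded kit do not part overlapping genes, and among the members Cybb, Ncf1, Fcgr3 and Fcgr4 overlap other annotated genes. Some genes of the related lists do too, such as Nox1, Prdx5 and Lyn. Words of 50 bases were compared among GENCODE transcripts.

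Each comparison stayed within 1 table, with all its genes in the fit: edgeR 4.0.16 (R 4.3.3), robust quasi-likelihood F test, TMM scaling, filterByExpr with a minimum count of 10, two-sided p, Benjamini-Hochberg adjustment, calls under 0.05. CPM was taken over the library total. Alternatives were DESeq2's size-factor method (RLE) in edgeR, library totals alone, DESeq2 1.42.0, limma-voom (3.58.1), no filter, a test against a 2-fold change, the replicate number as a block, all 12 libraries in 1 fit, and each library left out. Limits drawn from counts of 0 and intervals of counts cover counting error only. The scripts were tested on simulated data.

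The members and the related and marker lists were chosen with earlier results of these data known. Named genes were all members, up to 3 called genes of each related list by smallest p, Rac2, Tyrobp, Syk, Inpp5d and Itgam, and the 3 genes most like Cybb, Fcer1g and Fcgr2b. Some genes within this rule are not reported here. Other names were chosen after their values were seen, as were the ratios of Cybb to Cyba and of Fcer1g to the activating chains. Ly6g and Ighm of the marker lists were not found in the tables. The labels do not say what a replicate number marks. Over genes, the group-centred values of B220 HIGH and B220 LOW libraries with the same number correlated at 0.397, 0.198 and 0.307. All were over 0.1, so these libraries were treated as paired, on the data alone.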

Additional observations from a re-analysis of the deposited data

How the results depend on the processing

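Against wt LSK, 8 members were called in iMLL-ENL total in the main test and under every alternative run but 2, which left 7: no filter and the replicate block, where Cybb had an adjusted p of 0.0527 (log2 4.91) and 0.0613 (log2 5.24). The replicate numbers did not pair these libraries (correlations of deviations 0.0164, 0.16 and -0.0358). Directions of the 8 members held throughout. Scaling by library totals alone put the median log2 change of all genes at -0.1, against 0.05 with TMM. The 4221 genes called became 2047 against a 2-fold change, 2411 with all 12 libraries in 1 fit and 2636 to 4528 with a library left out. Syk changed sign with library totals alone (-0.04) and ranged from -0.17 to 0.38 with a library left out, and Inpp5d from -0.05 to 0.31. The Fcgr2b share differed by -45.2 to -35.2 points. Between B220 HIGH and B220 LOW no member was called under any alternative. The count of 0 genes became 302 with DESeq2, 22 without a filter, 79 with the replicate block, 31 with all 12 libraries and 0 to 96 with a library left out (96 without B220 HIGH replicate 1). Related genes called were 7 with DESeq2, 1 with the replicate block and 0 to 6 with a library left out. With a library left out the log2 change ranged from -0.19 to 0.51 for Ncf1, -0.09 to 0.65 for Ncf4 and -0.45 to 0.17 for Rac2, and the Fcgr2b share from -5.36 to 1.97 points. Causes were not tested. Fcgr1 had 8 counts or fewer in 5 of the 6 iMLL-ENL total and wt LSK libraries, which limits its precision.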
